A study of Canis lupus familiaris with 8 samples.

Results

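TRAJ genes are the joining segments of the T cell receptor alpha chain (TRA), and they are described here by their number along the locus. All TRAJ genes named in the deposited receptor lists were taken, which gave 45 of the 111 V and J genes of the TRA and beta (TRB) chains in the series, from TRAJ2 to TRAJ60. Blood TCRαβ+ T cells of 4 healthy Beagles had been sorted by flow cytometry and carried through droplet-based 5′ single-cell sequencing, with 1 gene expression library and 1 V(D)J library per dog. Dog 1 was female and 5 years old, and the others were male, aged 7 (dogs 2 and 3) and 9 years (dog 4), and the labels name no treatment. The dog was the replicate throughout (n = 4).

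A V(D)J library lists assembled receptor chains per cell, each with its V gene, its J gene and the junction, the stretch between the 2 conserved codons where V and J meet. Of 26755 cells with a receptor row, 16603 had exactly 1 TRA and 1 TRB row. A clonotype was defined by identical V, J and junction bases of both chains, and each was counted once per library, which left 3268, 3051, 2813 and 2385 clonotypes in dogs 1 to 4, 11517 in all. The median TRA row rested on 3 unique molecular identifiers (UMIs) in dog 1 and on 4 in the other dogs, and 7.81% to 16.3% of TRA rows rested on 1 UMI. Pairs of libraries shared 62 to 86 receptor cell barcodes, and at none of them was the same rearrangement listed in both dogs.

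In the TRA locus the V genes (TRAV) lie on one side of the J genes, and the TRAJ genes with high numbers lie nearest to them, with the constant gene beyond the lowest number. A first join deletes the DNA between the chosen V and J, and a developing thymocyte can replace it with a further join of a V gene farther upstream to a J gene farther downstream until the receptor is selected or the cell dies. Both alleles rearrange and silencing of the other allele is incomplete, so a T cell can carry a pair of TRA chains. No genome was used here, so that place on the locus is given by gene number only, and the positions of the dog TRAV families were not analysed.

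The germline sequence of all 45 J segments was read from the germline alignments in the deposited lists. They were 52 to 69 bases long, and the closest pair differed by 16 edits, so that TRAJ genes do not form near-identical copies. The bases that can enter the junction are in capitals and end in the conserved codon, and the rest is in lower case, 5′ to 3′. The lowest- and highest-numbered genes, TRAJ2 and TRAJ60, mark the ends of the range used in blood:
TRAJ2: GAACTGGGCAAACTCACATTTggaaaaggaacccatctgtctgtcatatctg
TRAJ60: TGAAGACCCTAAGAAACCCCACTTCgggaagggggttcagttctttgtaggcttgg

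The 3 TRAJ genes with the largest shares of clonotypes had these segments, of which TRAJ33 ends its junction part in TGG, the tryptophan codon, in place of the usual phenylalanine codon:
TRAJ28: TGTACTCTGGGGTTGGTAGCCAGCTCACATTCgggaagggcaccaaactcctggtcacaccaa
TRAJ21: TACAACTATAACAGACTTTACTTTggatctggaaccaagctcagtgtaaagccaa
TRAJ33: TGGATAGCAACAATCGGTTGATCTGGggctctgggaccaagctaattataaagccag

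The segments below belong to genes that passed the test between CD4 and CD8A single-positive cells over all clonotypes, and they are shown because those comparisons turn on them. TRAJ48 was higher in CD8A cells and the others in CD4 cells. TRAJ13, TRAJ23, TRAJ25 and TRAJ38 passed neither with TMM scaling, nor with DESeq2, nor without the TRAV9-11/TRAJ28 join described below, and TRAJ27 passed without the join but not with TMM scaling or DESeq2. TRAJ16 passed with TMM scaling and without the join but not with DESeq2, and TRAJ48 passed in each:
TRAJ48: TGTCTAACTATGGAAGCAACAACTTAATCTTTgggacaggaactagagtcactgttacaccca
TRAJ13: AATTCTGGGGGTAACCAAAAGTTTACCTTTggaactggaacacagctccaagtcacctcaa
TRAJ16: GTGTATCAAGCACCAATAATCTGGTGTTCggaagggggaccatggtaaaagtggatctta
TRAJ23: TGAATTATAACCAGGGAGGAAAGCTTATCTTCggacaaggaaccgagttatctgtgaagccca
TRAJ25: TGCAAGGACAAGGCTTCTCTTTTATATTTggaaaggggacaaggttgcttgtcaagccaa
TRAJ27: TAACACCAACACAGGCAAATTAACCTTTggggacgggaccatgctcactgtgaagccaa
TRAJ38: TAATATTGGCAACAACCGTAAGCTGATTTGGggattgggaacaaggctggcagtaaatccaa

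Of the 45 segments, 36 end their junction part in TTT and 6 in TTC, both phenylalanine codons. TRAJ33 and TRAJ38 end in TGG and TRAJ59 in TCT. Finished junctions followed the length of the germline part. Over 40 TRAJ genes with at least 50 clonotypes, the mean junction length went with the length of the germline part at r = 0.919, a description across genes of the same 4 libraries. TRAJ9 and TRAJ2, with germline parts of 24 and 21 bases, gave the shortest mean junctions of 34.99 ± 0.53 and 35.1 ± 0.20 bases (SD, n = 4). TRAJ52, with 38 bases, gave the longest at 46.0 ± 0.42 bases. Germline bases kept in a junction were counted from its 3′ end up to the first mismatch. By this count, 2.49 ± 0.44 (TRAJ5) to 8.43 ± 0.28 bases (TRAJ39) of the germline part were not kept on average among these 40 genes. A sequence variant would add every germline base before it to this number.

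Use of TRAJ genes was uneven but alike between dogs. Across the 45 genes, shares of clonotypes correlated between pairs of dogs at r = 0.899 to 0.961, given as a description across genes. In all, 42 genes were found in every dog and 39 had a mean share of at least 1%. The highest mean share belonged to TRAJ28, with 5.29%, 8.13%, 6.08% and 4.78% of clonotypes in dogs 1 to 4 (mean 6.07 ± 1.47%, SD, n = 4). TRAJ21 followed with 5.57%, 5.01%, 4.98% and 5.37% (5.23 ± 0.29%), and in dogs 1 and 4 it exceeded TRAJ28. TRAJ33, the joining segment of the invariant alpha chain of human MAIT cells, stood at 4.65%, 5.24%, 4.87% and 3.94% (4.68 ± 0.55%). TRAJ31 (4.34 ± 0.44%) and TRAJ27 (4.28 ± 0.26%) completed the 5 most used genes, which together held 24.6 ± 1.93% of clonotypes.

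Neighbours in this order were mostly not separable. Of 44 neighbouring pairs, 2 lay farther apart than the sum of their SDs, at the steps below TRAJ8 and TRAJ53. The 5 least used genes among those found in every dog were TRAJ41 (1.10 ± 0.32%), TRAJ58 (1.08 ± 0.22%), TRAJ8 (0.812 ± 0.209%), TRAJ53 (0.338 ± 0.132%) and TRAJ59 (0.053 ± 0.036%). Another 3 genes were rarer and not found in every dog. TRAJ46 had 5 clonotypes, TRAJ11 had 4 and TRAJ60 had 1, in dog 2. At the other end of the locus TRAJ2 held 1.74%, 1.21%, 0.89% and 1.59% of clonotypes. TRAJ18, which forms the invariant chain of human NKT cells, held 1.56 ± 0.22%, and TRAJ52 held 4.10 ± 0.39%.

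By stretch of the locus, the middle was used most. The 15 genes from TRAJ21 to TRAJ40 held 50.4 ± 1.68% of clonotypes, or 3.36% per gene. The 14 genes up to TRAJ20 held 22.5 ± 2.81% (1.60% per gene) and the 16 genes from TRAJ41 upwards held 27.1 ± 1.76% (1.70% per gene). The mean TRAJ number was 30.1, 31.5, 32.1 and 30.1 in dogs 1 to 4 (30.96 ± 1.01). When every cell was counted in place of every clonotype, the share of TRAJ28 was 7.78 ± 2.24% and that of TRAJ34 reached 7.66% in dog 4, against 3.77% of its clonotypes.

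**Figure D1:**
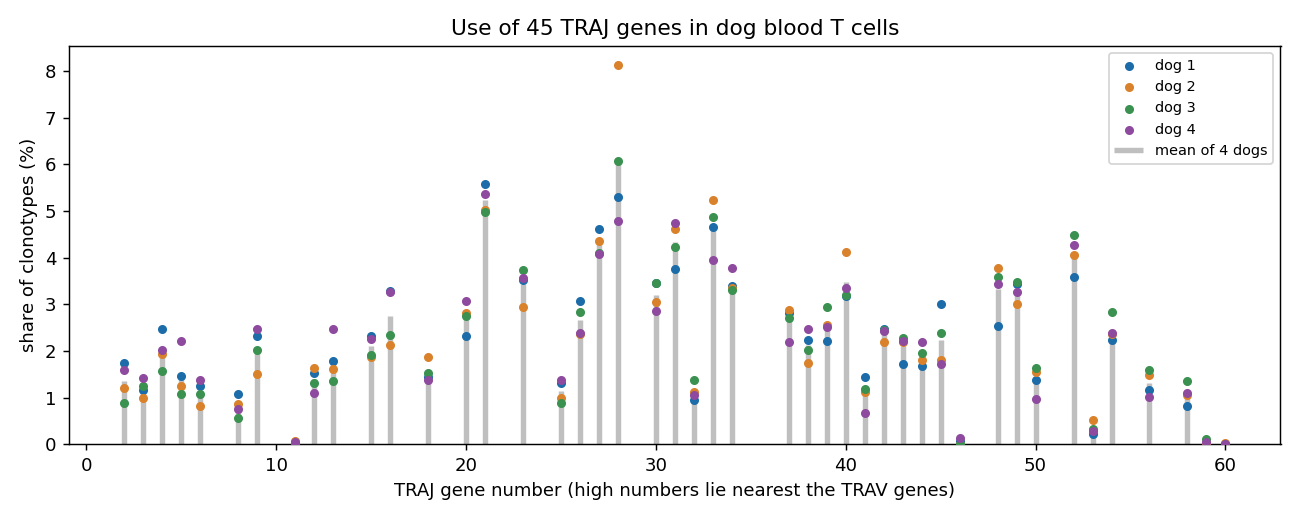
Share of clonotypes in percent (y axis) for each TRAJ gene by its number (x axis), with a point per dog and a grey bar for the mean of 4 dogs. TRAJ28 and TRAJ21 have the tallest bars at 6.07% and 5.23%, and TRAJ11, TRAJ46, TRAJ59 and TRAJ60 lie near 0.

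TRAJ28 owed part of its rank to a recurrent join. Of 706 TRAJ28 clonotypes, 294 (41.6%) used TRAV9-11, and TRAJ28 took 27.8% of the 1058 TRAV9-11 clonotypes. By dog there were 59, 129, 78 and 28 such clonotypes. Without them TRAJ28 held 3.55%, 4.07%, 3.40% and 3.65% of the remaining clonotypes (3.67 ± 0.29%). As shares of all clonotypes, a larger total, TRAJ34 held 3.45 ± 0.22% and TRAJ40 3.47 ± 0.45%. The junction of this join was 48 bases long in 89.5% of its clonotypes, against 22.1% of the other TRAJ28 clonotypes. The most widely shared junctions are shown because they kept nearly all germline bases of TRAJ28, in capitals here, while the bases just before them varied:
junction A: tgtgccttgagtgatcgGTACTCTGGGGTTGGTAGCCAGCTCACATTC
junction B: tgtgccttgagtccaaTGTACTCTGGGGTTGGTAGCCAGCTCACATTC
junction C: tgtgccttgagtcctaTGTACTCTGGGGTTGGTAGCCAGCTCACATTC

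Each was found in 3 dogs, in 6, 5 and 5 clonotypes and in 35, 15 and 12 cells. They carried 31, 32 and 32 of the 32 germline bases of TRAJ28 that can enter a junction. Identical TRA rearrangements in more than 1 dog were otherwise uncommon. Of 11176 distinct rearrangements, 161 (1.44%) were found in at least 2 dogs, and 34 of these used TRAJ28, 27 of them with TRAV9-11. TRAJ28 had 5.33% of its rearrangements in more than 1 dog, and TRAJ12 came next with 2.63% (4 of 152).

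Which TRAJ genes were used depended on the TRAV gene they were joined to. The mean TRAJ number ran from 19.4 for TRAV43-6 (found in dogs 1 and 4) to 48.7 ± 2.70 for TRAV40 among the 24 TRAV genes with at least 20 clonotypes. TRAV40 clonotypes averaged TRAJ 48.6, 46.5, 52.6 and 47.2 in dogs 1 to 4, and 83.0% of them used TRAJ41 or a higher number. They numbered only 47, with 9, 13, 16 and 9 in dogs 1 to 4, and their median and 90th percentile both lay at TRAJ54. TRAV38-2 averaged 43.3, 46.5, 47.0 and 45.8, with 75.4% from TRAJ41 upwards. These V genes were thus joined mainly to the J genes nearest the V side. TRAV43-4 averaged 22.9, 25.95, 25.6 and 21.9, with 9.18% from TRAJ41 upwards and 37.7% up to TRAJ20. Every dog's value for TRAV40 and TRAV38-2 lay above every dog's value for TRAV43-4.

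Outside the multigene TRAV9 and TRAV43 families the mean TRAJ number went up with the TRAV number by group, with exceptions among single genes. The 3 genes TRAV8-2, TRAV10 and TRAV12 averaged 36.2, 36.1, 37.2 and 35.7 in dogs 1 to 4 (36.3 ± 0.66). The 5 genes from TRAV21 to TRAV29 averaged 39.6, 41.1, 40.4 and 40.3 (40.4 ± 0.59), and the 6 genes from TRAV33 to TRAV40 averaged 42.6, 41.9, 43.9 and 45.8 (43.6 ± 1.72). The ranges of the 3 groups, which were set after the values by gene had been seen, did not overlap. Single genes departed from this order. TRAV21 averaged 36.3 ± 1.77, below TRAV8-2 at 37.6 ± 1.39. TRAV33, with 27 clonotypes, averaged 39.5 ± 4.80, below TRAV22, TRAV24, TRAV28 and TRAV29 (40.2 to 41.9). Across the 13 TRAV genes outside the families with at least 20 clonotypes, TRAV number and mean TRAJ number correlated at r = 0.854. This is a description over genes that share 4 libraries. Over single clonotypes the same relation was weak (r = 0.193 to 0.280 per dog over 703 to 940 clonotypes). Each of the 13 V genes joined TRAJ genes across a wide range.

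The families did not fall on that line. Clonotypes of the TRAV9 family, 42.3% of all, averaged TRAJ 27.5, 29.2, 29.2 and 27.3 (28.3 ± 1.07). Those of the TRAV43 family, 27.7% of all, averaged 25.2, 26.7, 27.2 and 24.8 (25.96 ± 1.14) although their number is the highest. With the families included, the correlation across 24 TRAV genes was r = 0.175. Within the TRAV9 family the members also differed. TRAV9-7 averaged 33.1, 34.6, 32.6 and 34.5 and TRAV9-8 averaged 21.9, 26.1, 25.5 and 22.6, with no overlap. TRAV9-11 averaged 32.5 ± 0.57, and 34.1 ± 0.96 without TRAJ28.

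**Figure D2:**
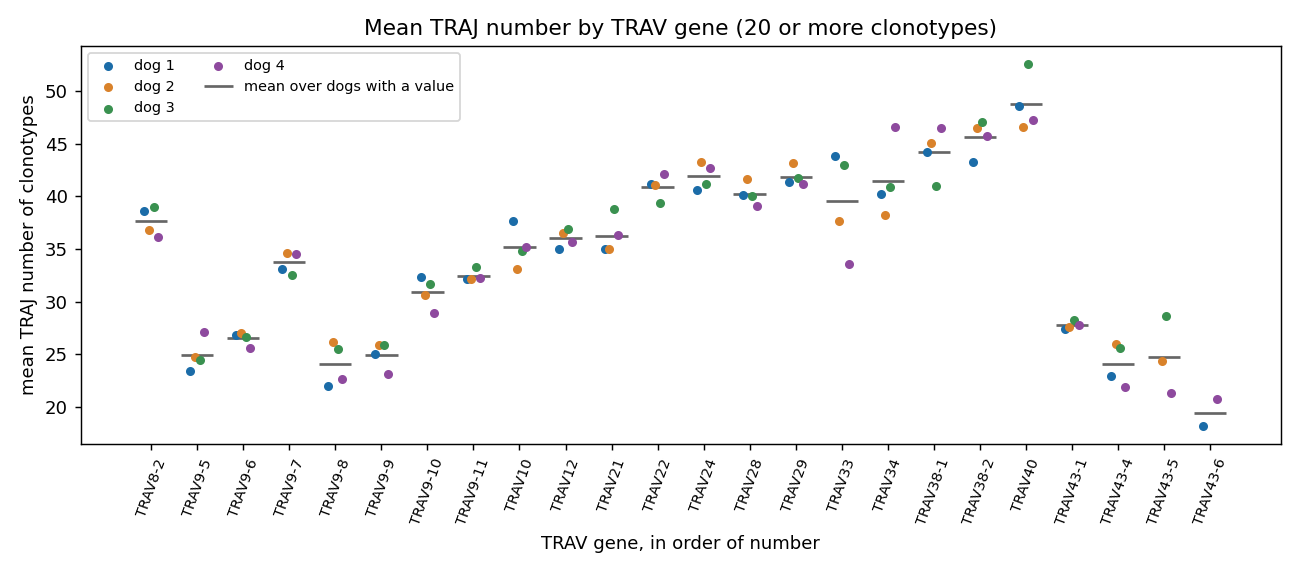
Mean TRAJ number of clonotypes (y axis) for each TRAV gene with at least 20 clonotypes, in order of TRAV number (x axis), with a point per dog and a line for the mean over dogs with a value. Outside the TRAV9 and TRAV43 families the means range from 35.2 for TRAV10 to 48.7 for TRAV40, and the TRAV43 genes lie between 19.4 and 27.8.

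The share of each end of the J cluster showed the same order. TRAJ41 and higher numbers made up 65.7 ± 4.69% of TRAV33 to TRAV40 clonotypes, 55.7 ± 1.90% of TRAV21 to TRAV29, 41.2 ± 2.34% of TRAV8 to TRAV12, 18.2 ± 1.49% of the TRAV9 family and 14.0 ± 1.74% of the TRAV43 family. TRAJ numbers up to 20 made up 3.20 ± 1.97%, 6.18 ± 1.28%, 11.8 ± 1.55%, 25.2 ± 3.77% and 34.1 ± 4.15% of the same groups. Seen from the J side, 46.7% of TRAJ58 clonotypes carried a TRAV21 to TRAV29 gene and 2.51% a TRAV43 gene, as means over dogs. For TRAJ2 the same shares were 2.55% and 42.3%. For TRAJ54 they were 32.2% and 6.03%, and for TRAJ16 2.98% and 45.8%.

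**Figure D3:**
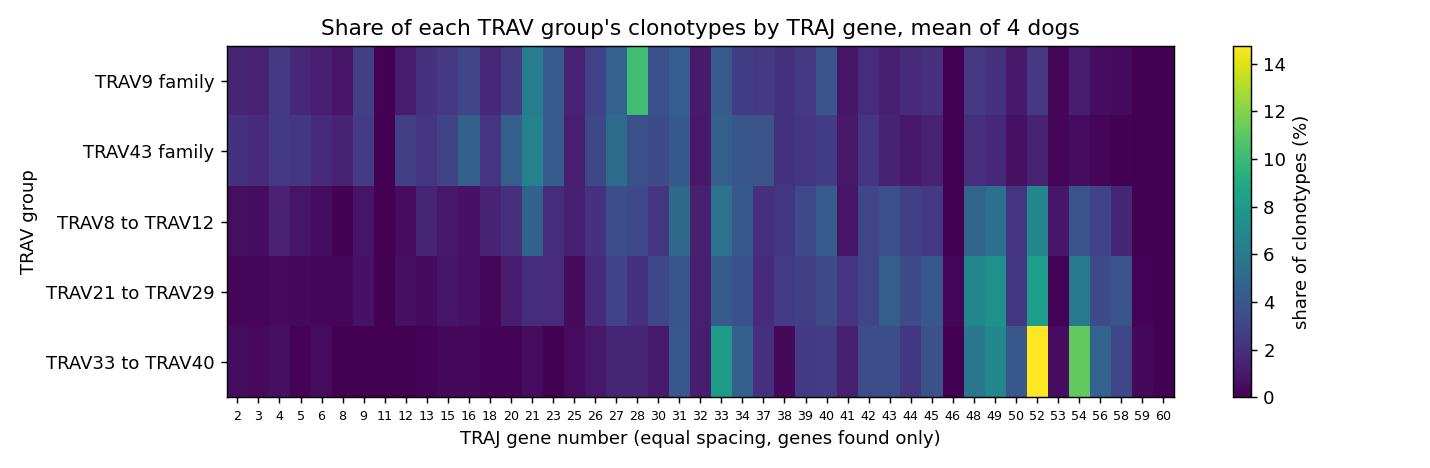
Share of clonotypes in percent (colour) by TRAJ gene (x axis, genes found, evenly spaced) for 5 TRAV groups (y axis), mean of 4 dogs. The bright cells of the TRAV33 to TRAV40 row lie at high TRAJ numbers, where TRAJ41 and above hold 65.7% of clonotypes, and the TRAV9 row has its brightest cell at TRAJ28.

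Low TRAV numbers (under 20) were compared with high ones (20 or more) as the simplest split by V number. Clonotypes with a low TRAV number averaged TRAJ 29.3, 30.7, 31.1 and 29.1 in dogs 1 to 4, and those with a high number 30.98, 32.5, 33.3 and 31.4. The mean was lower in all 4 dogs, by 2.01 ± 0.31 (SD of the differences within dogs), but the groups overlapped between dogs. The exact permutation test, two-sided and without pairing by dog, gave p = 0.0571 (smallest possible 0.0286). Paired within dogs, the exact permutation test gave p = 0.125, the smallest possible. The difference depended on where the families fell. With the TRAV9 and TRAV43 families left out, the means were 36.3 ± 0.66 and 41.3 ± 0.61 (exact permutation p = 0.0286). With the border at TRAV number 30, which leaves mostly TRAV43 on the high side, the sign turned and the low group was higher by 3.25 (exact permutation p = 0.0286).

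By gene, 5 of 41 TRAJ genes with at least 10 clonotypes (12.2%) differed between low- and high-numbered TRAV in edgeR's quasi-likelihood test at an adjusted p under 0.05. Of these, 1 was higher (2.44%) and 4 were lower (9.76%) with low-numbered TRAV. TRAJ28 was higher, at 7.72%, 11.7%, 9.08% and 6.28% against 2.46%, 3.83%, 2.61% and 3.01% (log2 fold change 1.56 ± 0.16, SE). No dog overlapped. Lower with low-numbered TRAV were TRAJ58 (-1.03 ± 0.33), TRAJ54 (-0.93 ± 0.20), TRAJ12 (-0.89 ± 0.28) and TRAJ52 (-0.53 ± 0.16). TRAJ54 stood at 1.76%, 2.10%, 1.79% and 1.16% against 2.79%, 2.67%, 4.06% and 3.83%, again without overlap. TRAJ58, TRAJ54 and TRAJ52 lie at the V side of the cluster and TRAJ12 at the other side.

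With the dog as replicate block, 9 genes passed (22%), 3 higher (7.32%) and 6 lower (14.6%), the added ones being TRAJ21 and TRAJ40 (higher) and TRAJ49 and TRAJ56 (lower). Without the TRAV9 and TRAV43 families 5 of 40 genes passed (12.5%). TRAJ18 (log2 fold change 2.78 ± 0.75), TRAJ13 (1.88 ± 0.65) and TRAJ21 (1.59 ± 0.29) were then higher with low-numbered TRAV, and TRAJ58 (-1.06 ± 0.32) and TRAJ54 (-0.96 ± 0.23) lower. With the replicate block added 4 of them passed, and TRAJ13 did not (adjusted p = 0.0702 in edgeR). Of the genes that passed over all clonotypes, 3 were lost without the families. TRAJ28 stood at 0.76 ± 0.31 (adjusted p = 0.0673), TRAJ52 stood at -0.55 ± 0.21 (adjusted p = 0.0569) and TRAJ12 at 0.05 ± 0.86 (adjusted p = 0.956). Without dog 2, 2 of the 5 genes passed, TRAJ28 among them.

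Conventional CD4 and CD8 T cells recognise peptides on MHC class II and class I, which need not hold for every cell classed here. CD4 and CD8A single-positive (sp) cells were told apart by raw UMIs: at least 1 UMI of one gene and 0 of the other. This left 1828, 1430, 1225 and 1177 CD4 sp and 260, 479, 521 and 411 CD8A sp clonotypes in dogs 1 to 4. Together these were 7331 of the 11517 clonotypes, and those without a cell of either class were left out. A cell with 0 UMIs of a gene can still express it, so that some cells may be misclassed. In all, 34 clonotypes had cells of both classes and 12 with equal numbers were left out. Median UMIs per cell were 3747 to 4091.5 in CD4 sp and 3586.5 to 3932 in CD8A sp cells. Lineage genes followed the classes. CD40LG and ZBTB7B summed to 98.3 to 111 CPM (counts scaled to the library total) in CD4 sp and 17.3 to 30.9 CPM in CD8A sp cells, and RUNX3 stood at 11.2 to 15.3 and 22.2 to 29.7 CPM. CD8B was not found by that symbol.

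Among the 41 tested genes, TRAJ28 differed most between the classes. It made up 25.0%, 29.4%, 19.0% and 9.25% of CD8A sp clonotypes in dogs 1 to 4, against 3.61%, 3.36%, 2.45% and 3.74% of CD4 sp clonotypes. Every CD8A value lay above every CD4 value, and dog 4 was the lowest of the CD8A values. The log2 fold change of CD4 over CD8A was -2.63 ± 0.35 in edgeR. The TRAV9-11/TRAJ28 join formed 15.1 ± 7.72% of CD8A sp and 0.11 ± 0.097% of CD4 sp clonotypes. Without it TRAJ28 still stood at 6.65 ± 1.88% of CD8A sp and 3.18 ± 0.62% of CD4 sp clonotypes (-1.03 ± 0.18). By dog these shares were 7.58%, 7.90%, 7.25% and 3.87% against 3.40%, 3.29%, 2.29% and 3.74%, so that dog 4 had nearly equal values.

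In all, 10 of 41 tested TRAJ genes (24.4%) differed between the classes at an adjusted p under 0.05 in edgeR, 8 higher in CD4 sp (19.5%) and 2 higher in CD8A sp cells (4.88%). The genes higher in CD4 sp were TRAJ16 (log2 fold change 1.39 ± 0.27), TRAJ25 (1.38 ± 0.54), TRAJ13 (1.03 ± 0.32), TRAJ38 (0.84 ± 0.29), TRAJ23 (0.81 ± 0.23), TRAJ27 (0.79 ± 0.24), TRAJ33 (0.78 ± 0.24) and TRAJ34 (0.66 ± 0.23). TRAJ48 was the other gene higher in CD8A sp cells (-0.66 ± 0.20). With the replicate block 11 genes passed (26.8%), 8 higher in CD4 sp (19.5%) and 3 higher in CD8A sp cells (7.32%). These were the same 10 genes and TRAJ58 on the CD8A side (adjusted p = 0.0591 without and 0.0394 with the block in edgeR). Without dog 2, 3 of these 10 genes passed, and DESeq2 called 2 of them. A share is taken of all clonotypes of a class, so the size of TRAJ28 in CD8A sp cells lowers every other share there. With TMM scaling, which centres on the bulk of the genes, 6 genes passed, 1 higher in CD4 sp (TRAJ16) and 5 higher in CD8A sp (TRAJ28, TRAJ48, TRAJ52, TRAJ54 and TRAJ58).

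Leaving out the TRAV9-11/TRAJ28 join gave 8 of 41 genes (19.5%), 3 higher in CD4 sp and 5 higher in CD8A sp cells, and 5 of them were shared with the test on all clonotypes. With the replicate block added, 4 passed, TRAJ16 higher in CD4 sp and TRAJ28, TRAJ48 and TRAJ58 higher in CD8A sp cells. Over all clonotypes TRAJ16, among the lower numbers, held 3.45%, 2.52%, 2.69% and 3.99% of CD4 sp against 1.54%, 0.84%, 1.54% and 0.97% of CD8A sp clonotypes, with no overlap. Its log2 fold change without the join was 1.16 ± 0.29. TRAJ27 (0.57 ± 0.21) and TRAJ33 (0.55 ± 0.20) were the other genes higher in CD4 sp, and neither passed with the block (adjusted p = 0.0924 and 0.0975 in edgeR). Over all clonotypes TRAJ33 stood at 5.31%, 6.29%, 5.47% and 4.25% of CD4 sp and at 2.69%, 1.88%, 4.03% and 3.65% of CD8A sp clonotypes. There the dog 4 value in CD4 sp was just above the dog 3 value in CD8A sp cells. Without the join the dog 4 value in CD4 sp (4.25%) lay below the dog 3 value in CD8A sp cells (4.62%), so the groups overlapped.

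On the CD8A side, the genes besides TRAJ28 came from the high-numbered end. Without the join the log2 fold changes were -1.24 ± 0.41 for TRAJ58, -0.90 ± 0.20 for TRAJ48, -0.67 ± 0.24 for TRAJ54 and -0.58 ± 0.19 for TRAJ52. TRAJ54 and TRAJ52 did not pass with the block (adjusted p = 0.0638 for each in edgeR). TRAJ54 held 2.31%, 2.92%, 3.07% and 2.92% of all CD8A sp clonotypes and 2.30%, 2.03%, 2.20% and 1.87% of CD4 sp clonotypes. Dog 1 had the closest pair of values. Over all clonotypes TRAJ48 held 2.31%, 5.43%, 4.42% and 5.11% of CD8A sp against 2.46%, 3.22%, 2.94% and 2.89% of CD4 sp clonotypes, and was higher in CD8A sp cells in 3 of 4 dogs. Without the join it was higher in CD8A sp cells in every dog, with 2.84% against 2.47% in dog 1. TRAJ18 (0.29 ± 0.38, adjusted p = 0.648 in edgeR) and TRAJ2 (-0.23 ± 0.37, adjusted p = 0.707) did not pass in this comparison.

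**Figure D4:**
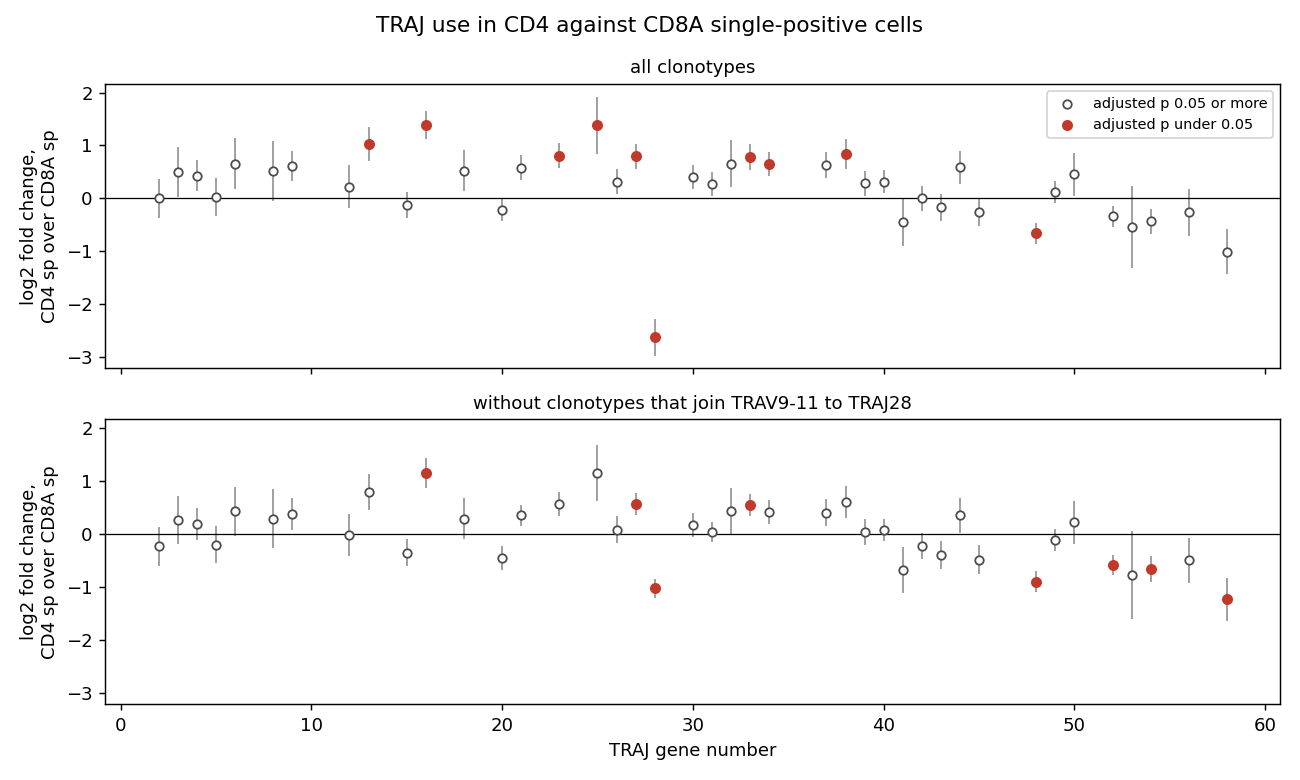
Log2 fold change of CD4 sp over CD8A sp clonotypes (y axis, with SE bars, edgeR, 4 dogs) by TRAJ number (x axis), for all clonotypes (top) and without the TRAV9-11/TRAJ28 join (bottom). Filled points have an adjusted p under 0.05. TRAJ28 moves from -2.63 to -1.03 between the panels, and TRAJ48, TRAJ52, TRAJ54 and TRAJ58 are filled below 0 in the lower one.

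By stretch of the locus, TRAJ41 and higher numbers made up 25.8%, 27.1%, 30.5% and 30.7% of all CD8A sp clonotypes and 24.3%, 24.3%, 26.4% and 23.5% of all CD4 sp clonotypes. The CD8A share was higher in every dog, but dog 1 in CD8A sp lay below dog 3 in CD4 sp cells. Without the join they made up 31.8%, 35.4%, 34.9% and 32.5% of CD8A sp clonotypes and 24.3%, 24.3%, 26.5% and 23.5% of CD4 sp clonotypes. The groups then did not overlap. TRAJ28 lies in the middle stretch, so leaving out the join raises the shares of the other stretches in CD8A sp cells. TRAJ21 to TRAJ40 made up 52.8 ± 3.80% of all CD8A sp and 51.7 ± 1.42% of all CD4 sp clonotypes. Without the join they made up 44.3 ± 2.03% and 51.6 ± 1.41%. Numbers up to 20 made up 22.03 ± 3.47% of CD8A sp and 23.7 ± 2.25% of CD4 sp clonotypes without the join, which overlapped. The mean TRAJ number over all clonotypes was 29.9, 30.9, 31.2 and 29.3 in CD4 sp and 30.4, 31.7, 33.0 and 31.9 in CD8A sp cells. It was lower in CD4 sp in 4 of 4 dogs, by 1.42 ± 0.99, but the difference did not pass the exact permutation test (two-sided, unpaired p = 0.114). Without the join it was 2.07 (exact permutation p = 0.0571).

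The classes also differed in TRAV use, and whether this accounts for the difference in mean TRAJ number was not tested. TRAV21 to TRAV40, joined to high TRAJ numbers, made up 16.7 ± 1.56% (TRAV21 to TRAV29) and 7.26 ± 2.58% (TRAV33 to TRAV40) of CD8A sp clonotypes against 11.7 ± 0.77% and 3.87 ± 0.52% of CD4 sp clonotypes. The TRAV43 family, joined to low ones, made up 14.5 ± 1.498% and 33.8 ± 0.85%. The difference was also taken within each TRAV gene that had at least 5 clonotypes of both classes, in 14 to 20 genes per dog. The weighted mean of CD4 sp minus CD8A sp was then 0.40 ± 0.84 (exact permutation p = 0.657), higher in CD4 sp in 2 of 4 dogs. Without the join it was 0.068 ± 0.74 (exact permutation p = 0.943). With this spread over 4 dogs, a difference of either sign within TRAV genes could be missed. Within the TRAV43 family the mean TRAJ number was 26.4 ± 0.89 in CD4 sp and 25.3 ± 2.99 in CD8A sp clonotypes. Within TRAV21 to TRAV29 it was 39.6 ± 0.58 and 41.1 ± 2.46. By dog these were 40.4, 39.6, 39.4 and 39.0 in CD4 sp and 37.6, 43.4, 41.5 and 42.0 in CD8A sp clonotypes. The medians over all clonotypes, 30.5 ± 0.58 and 29.5 ± 1.73, had the opposite order to the means.

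Cells with a pair of TRA chains gave a view of both alleles of a cell. There were 1273 cells with 2 TRA rows and 1 TRB row, in 928 clonotypes (231, 271, 238 and 188 in dogs 1 to 4). All listed chains are productive, so that failed joins on the other allele are not seen. The first chain was the one with more UMIs. The TRAJ numbers of the chains of a cell moved together, with r = 0.477, 0.424, 0.345 and 0.526 in dogs 1 to 4 as a description over clonotypes. The mean TRAJ number of the second chain was 34.7, 36.8, 34.3 and 37.6 where the first chain used TRAJ30 or higher, and 24.7, 27.3, 27.3 and 25.0 where it used a lower number. The difference of 9.78 ± 2.30 passed the exact permutation test (two-sided, unpaired p = 0.0286, the smallest possible), and the groups did not overlap. Paired within dogs as a replicate block, the exact test cannot go below the 0.125 it gave.

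The relation was graded along the locus. With the first chain at TRAJ10 or below, the second averaged 20.2 ± 3.32 (98 clonotypes). It averaged 25.5 ± 1.38 for TRAJ11 to TRAJ20, 29.5 ± 0.90 for TRAJ21 to TRAJ30, 33.1 ± 1.43 for TRAJ31 to TRAJ40 and 36.3 ± 1.38 for TRAJ41 to TRAJ50. Above TRAJ50 it averaged 44.3 ± 2.02 (78 clonotypes). The chains of a cell lay 11.8 ± 0.76 numbers apart on average, and 53.7 ± 2.37% of pairs lay within 10. The same TRAJ gene on both chains was seen in 43 pairs (4.63%), 4 of which also shared the TRAV gene, and no pair had junctions within 2 edits of each other.

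**Figure D5:**
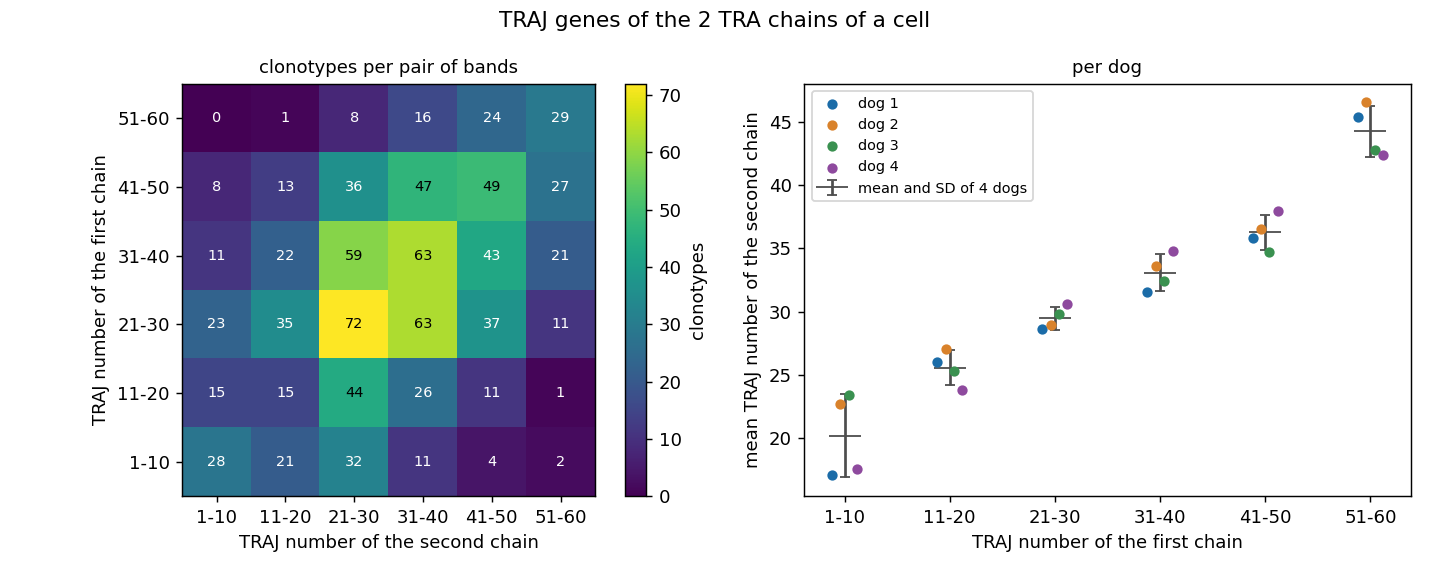
Left, number of clonotypes (colour and printed count) by the TRAJ band of the first chain (y axis) and of the second chain (x axis) in cells with 2 TRA and 1 TRB. Right, mean TRAJ number of the second chain (y axis) by the band of the first (x axis), with a point per dog and the mean and SD of 4 dogs, which climb from 20.2 to 44.3.

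The difference was of like size in deeper rows and without the TRAV9-11/TRAJ28 join. It was 10.8 with at least 3 UMIs on each chain (500 clonotypes), 8.97 without pairs of the same TRAJ gene and 10.2 without cells that had a TRAV9-11/TRAJ28 chain. In the 160 clonotypes with neither chain of the TRAV9 or TRAV43 family it was smaller, at 4.26, over 2 to 8 clonotypes per dog with a first chain under TRAJ30. In these clonotypes the TRAJ numbers of the chains correlated at r = 0.311, 0.322, 0.105 and 0.047 in dogs 1 to 4. Over all 928 clonotypes, TRAV numbers of the chains correlated at r = -0.096 to -0.001 per dog. This cannot show whether the V genes of a cell go together, since the TRAV9 and TRAV43 families have distant numbers but both joined low TRAJ numbers. By group, 83 clonotypes had both chains from TRAV21 to TRAV40, 235 had 1 such chain and 610 had none, which was not tested. A droplet that holds more than 1 T cell can also give a pair of TRA chains, and its share among these cells was not tested. In the 217 clonotypes with 2 TRA and 2 TRB rows, r was 0.117, 0.086, 0.361 and 0.160 in dogs 1 to 4 and the chains lay 14.2 ± 1.64 numbers apart. These r values lay below those of the cells with 1 TRB except in dog 3, where the order was reversed (r = 0.345 with 1 TRB and 0.361 with 2 TRB). The difference between these kinds of cell was not tested.

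The J gene of a chain also went with the V gene of the other chain. TRAV9 or TRAV43 chains of cells with 1 TRA averaged TRAJ 26.6, 28.3, 28.4 and 26.3 in dogs 1 to 4 (8059 clonotypes). Chains of the same families averaged 33.7, 34.7, 35.5 and 37.5 where the other chain of the cell used TRAV21 to TRAV40 (173 clonotypes), with no overlap. Where both chains came from these families the average was 24.0, 24.8, 26.1 and 25.1 (477 clonotypes). These groups were chosen after the values had been seen and are given without a test.

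Genes of the recombination machinery were read in the gene expression libraries, over all CD4 sp and CD8A sp cells. RAG1 and RAG2, the recombinase that cuts V and J, had 0 UMIs in every dog, which allows up to 0.0238 CPM each over all kept cells by counting error. Of 17 listed genes, 16 were found by symbol (TRAC was not) and 14 had enough counts to test. In edgeR, 1 of them, DNTT, differed between the classes and was higher in CD4 sp, against 6.6% of all 10120 genes higher in CD4 sp and 7.52% lower (14.1% in either direction). DNTT, the terminal transferase that adds bases at the V-J junction, stood at 5.83, 2.19, 4.33 and 0.885 CPM in CD4 sp and 1.41, 0.653, 0.114 and 0.248 CPM in CD8A sp cells (log2 fold change 2.87 ± 0.79, adjusted p = 0.0395). This rests on few counts, 1 to 4 UMIs of DNTT per dog in CD8A sp cells. Without dog 2 or without dog 3 edgeR called 0 of the 14 genes (3 at an unadjusted p under 0.05 in each case), with adjusted p = 0.108 and 0.208 for DNTT. Without dog 1 DNTT had too few counts to test, and 0 of the other 13 genes were called (4 at an unadjusted p under 0.05). DESeq2 called 3 of the 14 genes, against 14.2% of all genes, and left DNTT higher in CD4 sp.

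With the replicate block 5 of the 14 genes passed, while 27.5% of all 10578 genes tested in that fit passed (13.7% in each direction). ATM, the kinase that answers DNA breaks, and PAXX, an end-joining factor, were then also higher in CD4 sp (0.49 ± 0.10 and 0.28 ± 0.05), and XRCC4, partner of the ligase LIG4, and BCL2L1, a survival factor, were lower (-0.26 ± 0.08 and -0.66 ± 0.19). LIG4, PRKDC, XRCC5, XRCC6, NHEJ1, DCLRE1C, TCF3, TCF12 and MYB did not pass in either fit. As a check of the sort, the 5 T cell genes (CD3E, CD3D, CD3G, CD2 and CD5) summed to 2782 to 3166 CPM in CD4 sp and 2703 to 2905 CPM in CD8A sp cells. Of the monocyte genes, CSF1R stood at 0, and LYZ at 0.565 ± 0.222 CPM in CD4 sp and 0.279 ± 0.101 CPM in CD8A sp cells. The platelet gene PPBP stood at 0. The B cell genes MS4A1 and CD79B stood at means of 0.296 to 1.89 CPM in these classes, whereas the row named CD79A held 9726 ± 588 and 9795 ± 662 CPM. What that row counts was not tested. Over all kept cells MS4A1 stood at 2.04 ± 0.81 CPM, LYZ at 0.595 ± 0.082 CPM and CSF1R at 0. PPBP reached 0.909 CPM in 1 dog and was at 0 in the others.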

How the data were processed

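The authors deposited, per dog, raw counts of UMIs for each gene in each cell barcode (Cell Ranger 5.0.1, CanFam 3.1, per the labels and file headers, not normalized) and lists of productive TRA and TRB rearrangements with counts of UMIs and reads per row. Which reference set the V and J calls came from is not stated in the sources at hand, and clone identifiers are empty. Gene names came from the gene list of dog 2, since that of dog 1 has another length than its matrix (log row totals of dogs 1 and 2 then correlated at r = 0.991). The 4 expression libraries held 7428 to 8873 barcodes and 26904346 to 35661623 UMIs. Cells with 500 to 20000 UMIs and at most 10% mitochondrial UMIs were classed (7096 to 8454 per dog). Clonotypes per TRAJ gene came from cells with 1 TRA and 1 TRB row, pairs of TRA chains from cells with 2 TRA rows and the number of TRB rows given there, and gene counts from all cells of a class, whatever their receptor rows. No doublet caller was run.

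Clonotypes per TRAJ gene, dog and class were tested with edgeR 4.0.16 (quasi-likelihood, Benjamini-Hochberg over all TRAJ genes with at least 10 clonotypes, library size the sum of clonotypes, no further scaling) in R 4.3.3. A clonotype took the class of most of its cells. Gene counts summed per dog and class were tested likewise over all genes, with TMM factors and filterByExpr. Means per dog were compared by exact permutation tests (scipy 1.17.1), which did not pair the values of a dog except under the replicate block. The SD beside such a difference was taken over the differences within dogs. Alternatives were DESeq2 1.42.0, the dog as replicate block, other borders and filters, and each dog left out. CD4 and CD8A sums of a dog come from the same animal and library, so the block is given by the design. Deviations of the paired sums from their group means correlated at -0.164 to 0.204 over 37 TRAJ genes, and at 0.0721 to 0.312 over 39 genes between low- and high-numbered TRAV. The limit given for RAG1 and RAG2 covers counting error only. SDs were taken over dogs. SEs of log2 fold changes came from the F statistic of edgeR's quasi-likelihood fit, which takes in the spread between dogs, and p-values cover the spread between 4 dogs.

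The TRAJ genes, gene lists and comparisons were chosen with earlier results of these data known. Genes are named by rule: the 5 most and 5 least used TRAJ genes found in every dog, those at both ends of the range, TRAJ28, TRAJ33, TRAJ52 and TRAJ18, those called between CD4 and CD8A, and the called genes of largest change in either direction between TRAV groups. Others were named after their values had been seen, where a range or an alternative turned on them. The TRAV groups, the comparison within TRAV genes, and the values without TRAV9-11 or with the block added to an exclusion were chosen after seeing the data. No genome was used here. Some genes of the lists are not reported here.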

Additional observations from a re-analysis of the deposited data

Results flagged for a closer look

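In 2 of 69 sets of 4 values, 1 per dog, a dog lay far from the others by Dixon's test, which chance alone gives in about 1 of 20 sets. TRAJ59 held 0.107% of clonotypes in dog 3, against 0.031% to 0.042% in the other dogs, and rests on 6 clonotypes in all. The mean TRAJ number of TRAV9-11 clonotypes was 33.3 in dog 3, against 32.1 to 32.3 in the other dogs.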

How the results depend on the processing

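For the mean TRAJ number of CD4 sp minus CD8A sp, 3 alternatives reversed the sign: medians in place of means (1.0), the difference within TRAV genes (0.40) and the same without the TRAV9-11/TRAJ28 join (0.068). For low- minus high-numbered TRAV, a border at 30 reversed it (3.25), and it passed the test without the TRAV9 and TRAV43 families (-4.98) and with medians (-3.25). The second-chain difference kept its sign in every alternative (8.84 to 10.7 without each dog in turn, where 0.1 is the smallest p an exact permutation test of 3 against 3 dogs allows), and under the replicate block it remained 9.78 with an exact permutation p = 0.125, the smallest possible. The same limits apply to the other mean differences.

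TRAJ genes called between CD4 sp and CD8A sp numbered 3 with DESeq2, 6 with TMM, 5 with every cell counted, 3 without TRAV9-11, 4 without the join and with the block, and 3 to 11 without each dog. Between TRAV groups they numbered 9 with the replicate block, 2 with DESeq2, 2 with every cell counted, 13 with a border at 30, and 2 to 5 without each dog. A border at 15 gives the same groups as 20. Recombination genes called numbered 5 with the replicate block, 3 with DESeq2, 2 with no filter on low counts and 0 to 2 without each dog. The replicate block moved the TRAJ genes called between CD4 sp and CD8A sp from 10 to 11, and those between TRAV groups without the TRAV9 and TRAV43 families from 5 to 4. It took the second-chain difference from p = 0.0286 to p = 0.125 in the exact permutation test, the smallest possible with the block. The other mean differences tested with the block passed neither with it nor without it. For genes, every cell counted reversed TRAJ2 (-1.48), TRAJ27 (-0.12) and TRAJ38 (-0.18) between the classes. TRAJ8 (-0.29), TRAJ41 (0.44), TRAJ52 (0.047) and TRAJ54 (0.018) also changed sign there, and passed neither in the main fit nor in this one. Between TRAV groups, TRAJ12 reversed without the families (0.048, and 0.035 with the block), and a border at 30 reversed TRAJ52 (0.28), TRAJ54 (0.24) and TRAJ58 (1.24). The cause of each change was not tested. Apart from the reversals, 494 alternative values of named genes kept their side of the threshold, 74 lost the call and 23 gained it. Only a gene called in the main fit can lose a call, and the 494 include genes that were not called there. Between the classes, TRAJ25 and TRAJ34 each lost the call in 10 alternatives and kept it in 5. TRAJ38 lost it in 8 and kept it in 6, TRAJ16 lost it in 1 and kept it in 14, and TRAJ28 kept it in all 15. A value that kept its side could still change sign, as for TRAJ8, TRAJ41, TRAJ52 and TRAJ54 above.

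The alternative that groups cells by clone identifier was not run, since that column is empty. With 260 CD8A sp clonotypes in dog 1, a gene at 1% of clonotypes rests on about 3, and small differences were not detectable at this depth. A second TRA chain that was not captured leaves a cell among those with 1 TRA row.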
